A study of Homo sapiens with 8 samples.

Results

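The genes described here were those whose RNA was lower in OVCAR3 cells given a TARG1 siRNA than in every other group of the study. OVCAR3 is a human ovarian cancer cell line, and every library of the study was made from it. A member had to have a higher siTARG1 value under 0.6 times the lowest value of the other 6 libraries, and that lowest value had to reach 5 CPM (the exon counts of a row per 1000000 exon counts of its library). OARD1, the gene that encodes TARG1, and PRDX3 were left out by the rule. Of 20165 rows, each a gene or a set of joined genes, 10133 reached the 5 CPM floor, and 233 of these were members. The members were thus selected on their siTARG1 values relative to the other libraries, and the difference between siTARG1 and the other groups is described below without a test.

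The study held 4 groups of 2 RNA-seq libraries, which it describes as independent biological samples. Cells of the siControl and siTARG1 groups received 30 nM of a control or a TARG1 siRNA for 48 h. Cells of the RACK1-WT and RACK1-Mut groups carried a Dox-inducible shRNA against endogenous RACK1 together with an inducible HA-tagged RACK1, either wild-type or mutated at its sites of ADP-ribosylation, and both were given Dox at 1 µg/ml for 48 h. The study lists a pair of TARG1 siRNAs and does not say which one was sequenced, and no RACK1 group received a TARG1 siRNA. The RACK1 groups thus differed from the siRNA groups in cell line, Dox and transfection at once.

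Libraries held 30989049 to 42668783 exon counts. OARD1 stood at 47.5 and 50.5 CPM in siControl, at 3.15 and 3.97 CPM in siTARG1, and between 39.6 and 50.5 CPM in the 6 other libraries. All 9 ovarian carcinoma markers counted were present in every library, but their levels differed. PAX8 was at 265 to 443 CPM and EPCAM at 327 to 473 CPM. KRT8 and KRT18 were members and lowest in siTARG1. WT1 was also lowest there (15.6 and 16.3 CPM, against 24.1 to 47.5 CPM elsewhere) but was not a member. CDH1 was highest in siTARG1, at 300 and 297 CPM against 102 to 188 CPM. MSLN ran from 20.8 to 180 CPM, KRT7 from 141 to 581 CPM and MUC16 from 131 to 482 CPM. The summed leukocyte markers reached at most 3.31 CPM and the summed fibroblast markers at most 9.22 CPM. In such bulk RNA, fewer cells of a type and less RNA per cell cannot be told apart.

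TARG1 is a hydrolase that removes ADP-ribose from proteins. An siRNA lowers its target through near-complete pairing of its guide strand with the target RNA. The guide can also lower other transcripts in the manner of a microRNA, when its seed, bases 2 to 8, pairs with a short word in a 3′ untranslated region (3′ UTR). Transcripts with long 3′ UTRs hold any given short word more often. The sequences of the study's siRNAs are not given in the sources used here, so the words below were read from the transcripts and not from a guide.

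Every 7-base word was ranked in genes that were not members, by the mean difference in the log2 ratio of siTARG1 to siControl between 3′ UTRs with and without it, after adjustment for 3′ UTR length and GC content, divided by the standard error of that difference. Only the transcript's own strand was searched. The word ranked first was TGAACAT, held by 1495 of 9744 genes, with a ranking value of -14.5 and a difference of -0.16 on the log2 scale. The next was GAACATA, held by 952 genes, with a ranking value of -13.8 and a larger difference of -0.19. These words overlap by 6 bases and join to TGAACATA. They were known from earlier results of these data, so the ranking is no independent evidence. Sites are given 5′ to 3′ on the transcript strand, with coordinates of GRCh37 and the word in capitals, and sites are numbered among copies of the capitalised word. All lie in annotated 3′ UTRs. They were chosen to show the word in the 3′ UTR of the targeted gene, in members with the joined form, and in members with a single word.
OARD1 site 1 of 2 (chr6:41035051-41035073, minus strand): accagTGAACATtttggatgttt
OARD1 site 2 of 2 (chr6:41032561-41032589, minus strand): gattgtatatcTGAACATtaaactactac
USP46 site 1 of 1 (chr4:53462417-53462446, minus strand): ataataaactgTGAACATAtttttgttacc
SLC26A2 site 1 of 1 (chr5:149366511-149366540, plus strand): atgagtgtgtaTGAACATAccaatctatgt
GDF11 site 1 of 2 (chr12:56146181-56146210, plus strand): tctttctcttaTGAACATAaatctgtgagc
SPCS3 site 1 of 1 (chr4:177252693-177252722, plus strand): catgaaaatacTGAACATAtgtttgaggat
NUCKS1 site 1 of 1 (chr1:205685625-205685654, minus strand): aatacaggactTGAACATAaatagcagttg
F2R site 1 of 3 (chr5:76029758-76029786, plus strand): gagtttagcccTGAACATttcatggtgtt
PLEKHB2 site 1 of 1 (chr2:131905004-131905032, plus strand): gcatacttggaGAACATAtcccacattag

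The targeted transcript itself held TGAACAT at 2 places in its 3′ UTR of 2563 bases, 5 and 2495 bases after the stop codon. USP46 carried the joined form 1370 bases after its stop codon, and SLC26A2 carried it 5145 bases after the stop codon. F2R carried the first word at 3 places. PLEKHB2 held the second word alone. HEY1, the member with the lowest ratio, held neither word.

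Of the 228 members with a matched 3′ UTR sequence, 130 held at least 1 of the words (57.0%, exact 95% binomial interval 50.3 to 63.5), against 1929 of 9744 other genes past the floor (19.8%). The shares differed by 37.2 percentage points. The first word was in 107 members (46.9%) and in 15.3% of the other genes, and the second in 84 members (36.8%) and in 9.77% of the others. The joined 8-base form was in 45 members (19.7%) and in 3.82% of the others. In the coding sequence, where the same words were counted for comparison, 62 members (27.2%) and 18.5% of the others held one. In the 5′ UTR, 6 members (2.63%) and 1.12% of the others held one. The intervals cover counting error only. The words were picked for a low ratio of siTARG1 to siControl, a contrast that also entered the rule. They were known from earlier results of these data too, so the members' higher share is no independent evidence.

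The 3′ UTRs of members were longer than those of all rows past the floor, but not than those of genes just outside the rule. Their median length, as deposited for each row, was 1857 bases, beside 1295 bases over all rows past the floor. Lengths over 4000 bases were found for 53 members (22.7%) and for 13.5% of all rows. By matched sequence, genes with a ratio of 0.6 to 0.8, outside the rule, had a median of 1965 bases. Members had medians of 2165 bases at ratios under 0.4, 1945 at 0.4 to 0.5 and 1930.5 at 0.5 to 0.6. The median was 1373 bases at ratios of 0.8 to 1 and 1413 at 1 or more. SDHC, a membrane subunit of succinate dehydrogenase, had the longest at 12907 bases, followed by SFT2D2 at 10485, the activin receptor ACVR2B at 9810 and the inositol transporter SLC5A3 at 8905 bases. The shortest belonged to KRT18, a keratin of simple epithelium, at 59 bases, and to UFSP2, a protease of the UFM1 system, at 103 bases. Coding sequences of members were of median length 1326 bases, against 1437 bases over all rows. The median GC content of the 3′ UTRs was 38.3% for members and 41.7% for all.

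The members' share was the higher one in each of the 5 classes of 3′ UTR length. Below 500 bases, 8 of 26 members (30.8%) held a word, against 2.85% of other genes. From 2000 up to 4000 bases the shares were 72.4% and 28.9%, and from 4000 bases on they were 83.0% and 52.4%. The members with neither word, 98 in number (43.0%), had a median 3′ UTR of 956 bases, and the members with a word had one of 3007.5 bases. Among genes with the joined form, 10.8% were members. Among genes with neither word, 1.24% were.

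**Figure D1:**
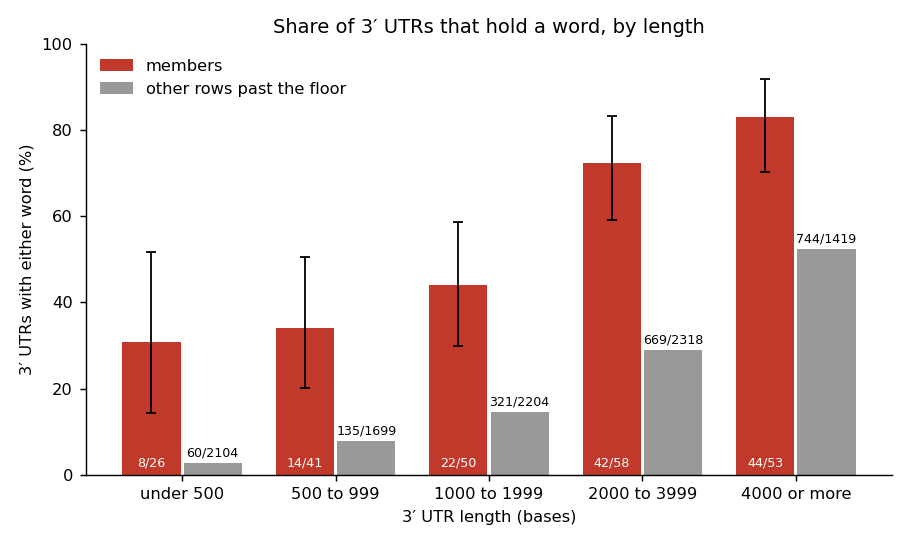
Share of 3′ UTRs (vertical axis, %) that held TGAACAT or GAACATA in 5 classes of 3′ UTR length (horizontal axis, bases), for the 228 members with sequence (red, with exact 95% binomial intervals) and for other rows past the floor (grey); fractions give the counts. The red bar is the taller one in every class, from 30.8% against 2.85% in the shortest to 83.0% against 52.4% in the longest.

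The median ratio of siTARG1 to siControl was 0.434 in members with a word and 0.427 in members with neither. The rule limited this ratio in both sets alike, so these medians do not show whether a word goes with a larger reduction. Shares with a word were also taken by the ratio used by the rule, the higher siTARG1 CPM over the lowest CPM of the other 6 libraries. Words were in 54.2% of genes with a rule ratio of 0.5 to 0.6 and in 46.5% of those at 0.6 to 0.8. They were in 27.8% of those at 0.8 to 1 and in 16.9% of those at 1 or more. The words were picked in the non-members for a low ratio of siTARG1 to siControl. Both groups enter the rule ratio too, so the order of the latter shares partly restates that choice and is no independent evidence. Whether the siRNA's seed pairs with these words was not tested, and an effect of the siRNA's sequence and an effect of losing TARG1 cannot be told apart with a single siTARG1 group.

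The 233 members were at a median of 0.432 of their siControl level in siTARG1 cells (range 0.128 to 0.586), beside a median of 1.024 over all rows past the floor. Relative to both RACK1 lines the median was 0.382 (range 0.021 to 0.559). The ratio used by the rule ran from 0.156 to 0.599 with a median of 0.514. It was under 0.3 in 13 members, from 0.3 to 0.4 in 35, from 0.4 to 0.5 in 63, and from 0.5 to 0.6 in the remaining ones, 74 of them at 0.55 or more. The lowest level in the other 6 libraries had a median of 37.7 CPM (5.03 to 1022 CPM), close to the 36.7 CPM of all rows. siTARG1 replicate 2 exceeded replicate 1 in 154 members (66.1%) and in 46.9% of all rows past the floor.

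**Figure D2:**
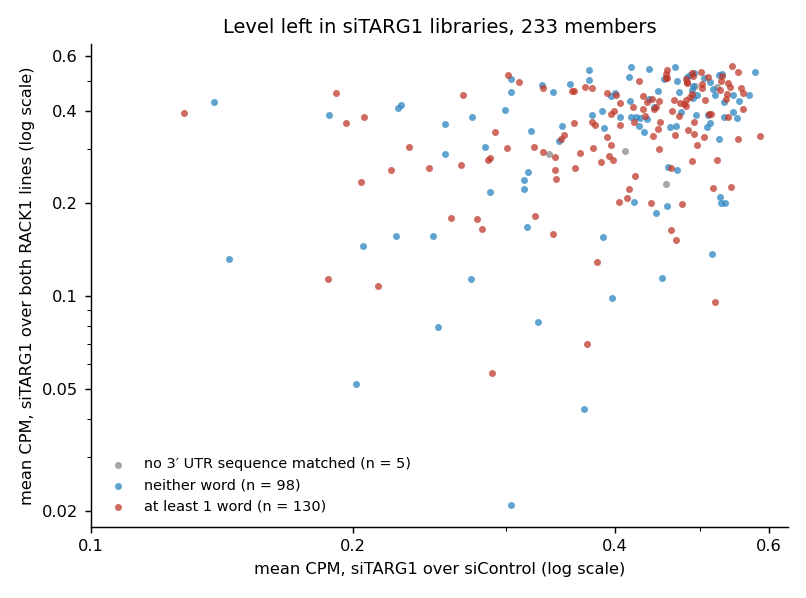
Mean CPM of siTARG1 divided by that of siControl (horizontal axis, log scale) and by that of both RACK1 lines (vertical axis, log scale) for the 233 members; each point is a gene, red with at least 1 word, blue with neither, grey with no matched 3′ UTR sequence. Red and blue points overlap over the whole range, with medians of 0.434 and 0.427 on the horizontal axis.

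The lowest ratio was that of HEY1, a transcriptional repressor induced by Notch. It measured 15.2 and 15.98 CPM in siControl, 2.18 and 2.31 CPM in siTARG1, 16.1 and 14.9 CPM in RACK1-WT and 17.8 and 19.3 CPM in RACK1-Mut. Both siTARG1 libraries were low, as the rule required, and the other 6 lay close together. F2R, the thrombin receptor PAR1, measured 32.0 and 32.7 CPM in siControl, 6.87 and 6.97 CPM in siTARG1, 65.5 and 61.6 CPM in RACK1-WT and 65.3 and 64.5 CPM in RACK1-Mut. It thus had 3 levels, lowest in siTARG1, as the rule required, and highest in the RACK1 lines. USP46, a deubiquitinating enzyme, measured 121 and 123 CPM in siControl, 22.9 and 26.8 CPM in siTARG1, and 104 to 109 CPM in the RACK1 lines.

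The other members with ratios among the lowest 15 were SEMA5B, NOG, RIDA, LAMA4, TMEM178A, CLIC5, ERLIN2, SLC26A2, PLEKHB2, CPM, RBBP9 and CAPNS1, which kept 18.7% to 28.9% of their siControl level. CAPNS1, the shared small subunit of the calpain proteases, was the most abundant of them, at 410 and 440 CPM in siControl and 117 and 124 CPM in siTARG1. CLIC5, a chloride channel protein of the actin cortex, was among the least abundant, at 8.77 and 9.85 CPM in siControl and 1.33 and 2.42 CPM in siTARG1. Of the 15, the joined form was in USP46 and SLC26A2 among others, and neither word was in HEY1, SEMA5B, NOG, LAMA4, TMEM178A, CLIC5 or CAPNS1.

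**Figure D3:**
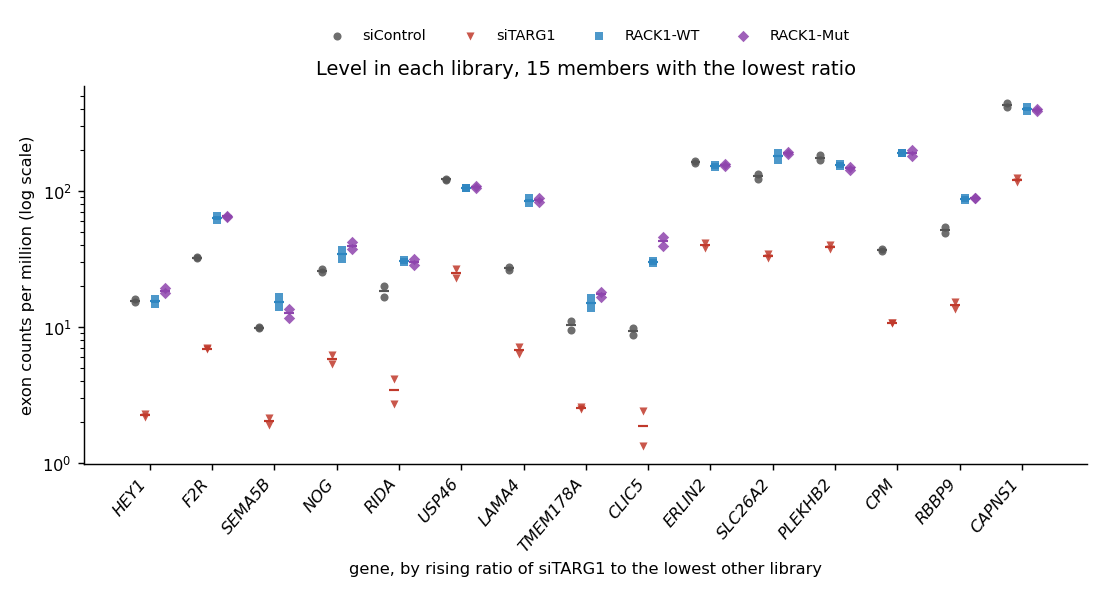
CPM (vertical axis, log scale) in each of the 8 libraries for the 15 members with the lowest ratio (horizontal axis); each point is a library, coloured by group, and short lines are means of 2 libraries. For every gene both siTARG1 points lie below all others, as the rule required; the RACK1 lines stand higher than siControl for most of the 15, by the most for CPM, CLIC5 and LAMA4.

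At the limit of the rule, BTRC had a ratio of 0.599, CEP57L1 of 0.597 and ZFAND6 of 0.596. Just outside it lay CTDSPL at 0.6003, TXNRD1 at 0.601 and NPAS3 at 0.602. At the floor, XKR9 with 5.03 CPM, PTPRZ1 with 5.203 CPM and PLIN4 with 5.31 CPM were inside, and FILIP1 with 4.67 CPM was outside.

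By function the members were diverse. Roles could be assigned from textbook knowledge, after the members were known, to 158 of the 233. Word counts by role below stand beside the 57.0% of all members with a 3′ UTR sequence, a share that rose with 3′ UTR length. Among members of the Notch pathway, through which a ligand on one cell activates a receptor on its neighbour, were the ligand JAG1, the receptor-modifying fucosyltransferase POFUT1 and the targets HES1 and HEY1. JAG1 stood at 164 and 157 CPM in siControl, 74.2 and 76.0 CPM in siTARG1 and 461 to 526 CPM in the RACK1 lines. JAG1 and POFUT1 held the joined form of the words, and HES1 and HEY1 held neither.

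There were 5 members in BMP and activin signaling, in which secreted ligands bind paired serine/threonine kinase receptors; pathway genes that were not members were not counted. The ligand GDF11 kept 23.2% of its siControl level and BMP4 kept 47.0%. Their receptors ACVR2B and BMPR2 kept 26.8% and 46.5%. NOG, the secreted BMP antagonist noggin, kept 22.4%, with 25.3 and 26.6 CPM in siControl and 5.36 and 6.28 CPM in siTARG1. Words were in GDF11, ACVR2B and BMPR2, which have 3′ UTRs of 7396 to 9810 bases, and not in BMP4 or NOG, with 296 and 668 bases.

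Among 14 other ligands and receptors were the chemokine CXCL1, which kept 25.5% of its siControl level, the receptor tyrosine kinase ERBB4, which kept 34.2%, and the natriuretic peptide receptor NPR1, which kept 30.4%. Of these 14, 6 held a word. To the pathway of mTOR, the kinase complex that couples nutrients to growth, 3 members were assigned. They were the mTOR inhibitor DEPTOR (31.7% of siControl), the Rag GTPase RRAGD (33.9%) and the translation repressor EIF4EBP1 (29.9%). EIF4EBP1, which binds the cap-binding factor eIF4E, measured 234 and 208 CPM in siControl, 67.5 and 64.4 CPM in siTARG1 and 156 to 174 CPM in the RACK1 lines. RRAGD alone of these 3 held a word.

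The 13 members in other signal transduction included the kinases TNIK and LYN and the RabGAP TBC1D4, each with the first word, and 9 of the 13 held at least 1 word. Of 13 members in glycan synthesis and sulfation, 9 held a word. GCNT2, a glycosyltransferase that branches poly-N-acetyllactosamine, kept 20.6% of its siControl level, and the sulfotransferase CHST2 kept 37.9%. STT3B, a catalytic subunit of the oligosaccharyltransferase, kept 55.3%.

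Of 9 members of the endoplasmic reticulum, 6 held a word. SPCS3, a subunit of the signal peptidase, measured 192 and 231 CPM in siControl, 52.3 and 68.5 CPM in siTARG1 and 201 to 232 CPM in the RACK1 lines. ERLIN2, a membrane protein that takes part in degradation of other membrane proteins, kept 24.5%, and the thioredoxin-related TMX1 kept 30.1%. Vesicle traffic had 10 members, of which 8 held a word, among them the endosomal GTPase RAB22A (36.4% of siControl), LITAF (39.5%) and RBSN (39.3%).

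The ubiquitin system had 11 members, of which 8 held a word. Beside USP46 they included the E3 ligase RNF130 (25.5% of siControl) and the F-box proteins FBXO32 (40.5%) and BTRC (46.8%), which select substrates for cullin ligases. The 10 members for chromosome segregation, chromatin and repair, 8 of them with a word, had short 3′ UTRs of median 795.5 bases. HMGN1, a nucleosome-binding protein, measured 626 and 682 CPM in siControl, 170 and 206 CPM in siTARG1 and 648 to 726 CPM in the RACK1 lines. NUCKS1, a chromatin-associated protein, had 4 copies of the first word and kept 32.3% of its siControl level. CENPW and SPIDR, a centromere protein and a scaffold of recombination repair, kept 43.5% and 32.3%.

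Among 12 members in transcription, 5 held a word. They included LHX1 (34.9% of siControl), FOXB1 (31.4%), ETV4 (42.0%) and the general factor GTF2E2 (39.9%). Mitochondria and carbon metabolism counted 15 members, 8 with a word. SDHC and SDHB, subunits of the same succinate dehydrogenase, kept 44.7% and 58.6% and both held the joined form, SDHB in a 3′ UTR of only 159 bases. LDHA, lactate dehydrogenase A, kept 53.6%, GPD1L 37.1% and the serine synthesis enzyme PSAT1 39.8%. Lipid metabolism had 7 members, 4 with a word, among them the sphingomyelin synthase SGMS2 (27.7%) and the desaturase FADS2 (46.3%).

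The 8 channels, transporters and flippases included the sulfate transporter SLC26A2 (25.9%), SLC5A3 (38.5%) and the water channel AQP5 (36.8%), and 4 held a word. Cytoskeletal members numbered 10, of which 5 held a word. KRT8 and KRT18, which pair to form the filaments of simple epithelia, were the most abundant members by the lowest CPM of the 6 libraries outside siTARG1. KRT18 measured 1296 and 1220 CPM in siControl, 512 and 534 CPM in siTARG1, and 968 to 1100 CPM in the RACK1 lines. KRT8 kept 48.7% of its siControl level, and KRT18 kept 41.5%. Neither held a word. The authors' alignment kept reads with up to 64 hits, so values of genes with processed pseudogenes such as KRT8, KRT18, HMGN1 and LDHA are uncertain.

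Extracellular matrix, adhesion and proteases had 12 members, 6 with a word. They included the laminin chain LAMA4 (25.1% of siControl), the carboxypeptidase M gene CPM (28.9%), PCDH17 (26.6%) and NECTIN3 (34.1%). The nuclear import receptor KPNA4 and the pore protein NUP43, the 2 members in nuclear transport, kept 40.1% and 55.4% and both held the first word.

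Lists of gene families by symbol were also counted past the floor, where 2.30% of all rows were members. The solute carriers had 4 members of 171 (2.34%), the ubiquitin and proteasome genes 9 of 323 (2.79%) and zinc finger proteins 2 of 360 (0.556%). No member was found among 13 genes of the RNA interference machinery, 17 genes of ADP-ribosylation, 57 cyclins and CDKs, 46 replication and repair genes, 86 protein phosphatases or 153 RNA binding and splicing genes. These lists are built from symbols and are not complete. They omit SPIDR and XRCC4, which act in repair, and the RNA-binding PTBP3, which are members. The protein phosphatase list omits PTPRZ1, a receptor-type tyrosine phosphatase, which is a member too. The members lay on 23 chromosomes. By chromosome the share was highest on 8, with 17 of 334 rows (5.09%), and lowest on 14, with 0.617%.

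Deposited counts of the coding sequence and the 3′ UTR were next compared. Both are parts of the exon counts that the rule used, so their reduction is a description. Coding counts of members had a median siTARG1 to siControl ratio of 0.450 (232 members) and 3′ UTR counts one of 0.402 (228 members). Both regions were below 1 in all 228 members where both had enough counts. The coding ratio was more than 1.5 times the 3′ UTR ratio in 8 members. For SPCS3 the ratios were 0.449 and 0.238, and for NUCKS1 they were 0.492 and 0.266. The reverse held in 6 members, among them LAMA4 with 0.239 and 0.378 and SDHC with 0.316 and 0.496.

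**Figure D4:**
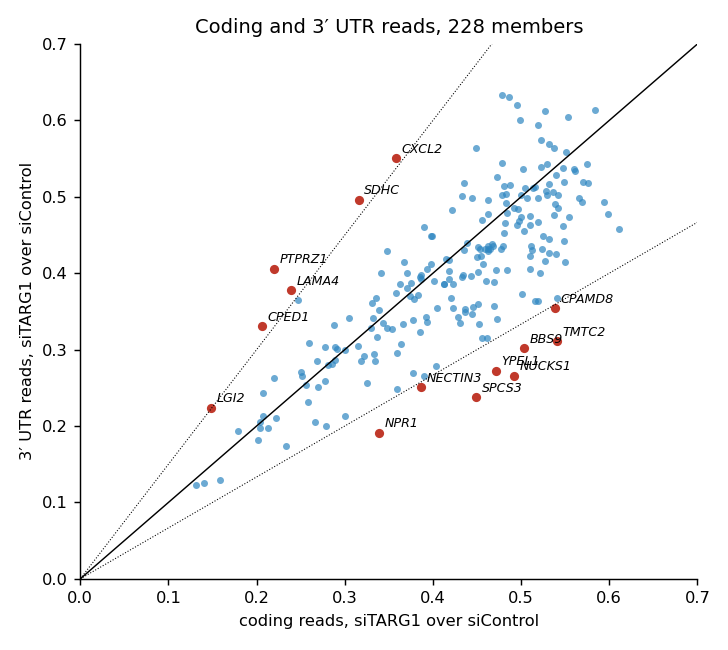
Ratio of siTARG1 to siControl in coding counts (horizontal axis) and in 3′ UTR counts (vertical axis) for the 228 members with both; each point is a gene, the solid line marks equal ratios, and the dotted lines a 1.5-fold difference. All points lie below 1 on both axes, and the 14 red, named genes lie past a dotted line.

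Neither direction between RACK1-Mut and RACK1-WT was fixed by the rule, which took the lowest CPM of the 6 libraries outside siTARG1. RACK1-Mut was compared with RACK1-WT to ask whether loss of the ADP-ribosylation sites of RACK1 moved the same genes. None of the 233 members was called (0 of 233) at an adjusted p under 0.05 by edgeR's quasi-likelihood test, for which 0.00713% of all 14024 rows were called, and DESeq2 also called 0. At an unadjusted p under 0.05 by the same edgeR test there were 22 members (9.44%), against 4.90% of all rows. The rows tested include rows under the 5 CPM floor, which no member is, so these shares do not come from like sets. The log2 fold changes of members had a median of 0.03, beside 0.005 over all rows, and ranged from -0.27 to 0.51. They were positive in 157 members and negative in 76, and the positive share over all rows was not counted.

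LHX1, a homeobox factor, had the lowest adjusted p of the members (0.386, edgeR's quasi-likelihood test, Benjamini-Hochberg adjusted). It measured 74.9 and 80.7 CPM in RACK1-WT and 96.4 and 93.8 CPM in RACK1-Mut, a log2 fold change of 0.30 ± 0.07 (SE). The groups did not overlap, a pattern whose share over all rows was not counted, and the difference did not pass the threshold. CLIC5 had the highest fold change, 0.51 ± 0.13 (SE), with 30.8 and 29.4 CPM in RACK1-WT and 45.6 and 39.6 CPM in RACK1-Mut, and an adjusted p of 0.501 by the same edgeR test. When only the 4 RACK1 libraries were fitted, LHX1, CLDN22 and CLIC5 were called. CLIC5 alone was called when either siTARG1 library was left out. The share of all rows called in these other fits was not counted, so the member counts cannot be weighed against it.

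RACK1-WT was compared with siControl to see whether members also differed between the parts of the study outside siTARG1. Of the 233 members, 135 were called (57.9%) by edgeR's quasi-likelihood test, where 63.3% of all rows were called. Higher in RACK1-WT were 94 members (40.3%), against 31.9% of all rows, and lower were 41 (17.6%), against 31.4%. Both groups entered the rule through the lowest of the 6 values, so these shares are not independent of it. The median log2 fold change was 0.09 over members and -0.02 over all rows. Experiment, cell line, transfection and Dox cannot be told apart in this comparison.

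The highest fold change was that of NPR1, with 7.97 and 6.92 CPM in siControl, 2.55 and 1.97 CPM in siTARG1, and 104 to 112 CPM in the RACK1 lines (log2 fold change of RACK1-WT over siControl 3.79 ± 0.10 SE, adjusted p = 2.55e-12, edgeR's quasi-likelihood test, Benjamini-Hochberg adjusted). The next highest were NCALD, a neuronal calcium sensor, at 2.41, GPD1L at 2.36 and, above both, AQP5, whose mean CPM was 8.29-fold higher in RACK1-WT. AQP5 stood at 8.85 and 9.30 CPM in siControl and at 73.2 and 77.2 CPM in RACK1-WT. These genes were far lower in both siRNA groups than in the RACK1 lines, with siTARG1 the lowest, as the rule required.

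At the other end, CILP, an extracellular matrix protein, measured 983 and 869 CPM in siControl, 128 and 129 CPM in siTARG1 and 287 to 320 CPM in the RACK1 lines (log2 fold change -1.70 ± 0.08 SE, adjusted p = 3.52e-10 by edgeR's quasi-likelihood test, Benjamini-Hochberg adjusted). PHLDA1 measured 28.1 and 27.0 CPM in siControl, 3.38 and 3.67 CPM in siTARG1 and 7.93 to 9.83 CPM in the RACK1 lines. For CILP and PHLDA1 the RACK1 lines thus lay below siControl, with siTARG1 the lowest, as the rule required. TENT5C and CPED1 had log2 fold changes of -1.51 and -1.16 and passed the test as well. PHLDA1 and CILP also had the lowest siTARG1 levels relative to siControl of all members, 12.8% and 13.9%.

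By role, 7 of 12 members of the extracellular matrix, adhesion and protease group were called higher in RACK1-WT and 3 were called lower, where 31.9% and 31.4% of all rows were called. In glycan synthesis 7 of 13 were called higher and 1 lower, and among other ligands and receptors 9 of 14 were called higher and 2 lower. In the ubiquitin system 3 of 11 were called higher and 4 lower. No member was called lower in Notch signaling (4 members), channels, transporters and flippases (8) or chromosome segregation, chromatin and repair (10). In the last of these, CENPW had a log2 fold change of -0.11 that did not pass. Over all members 40.3% were called higher and 17.6% lower, and the roles are small sets.

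**Figure D5:**
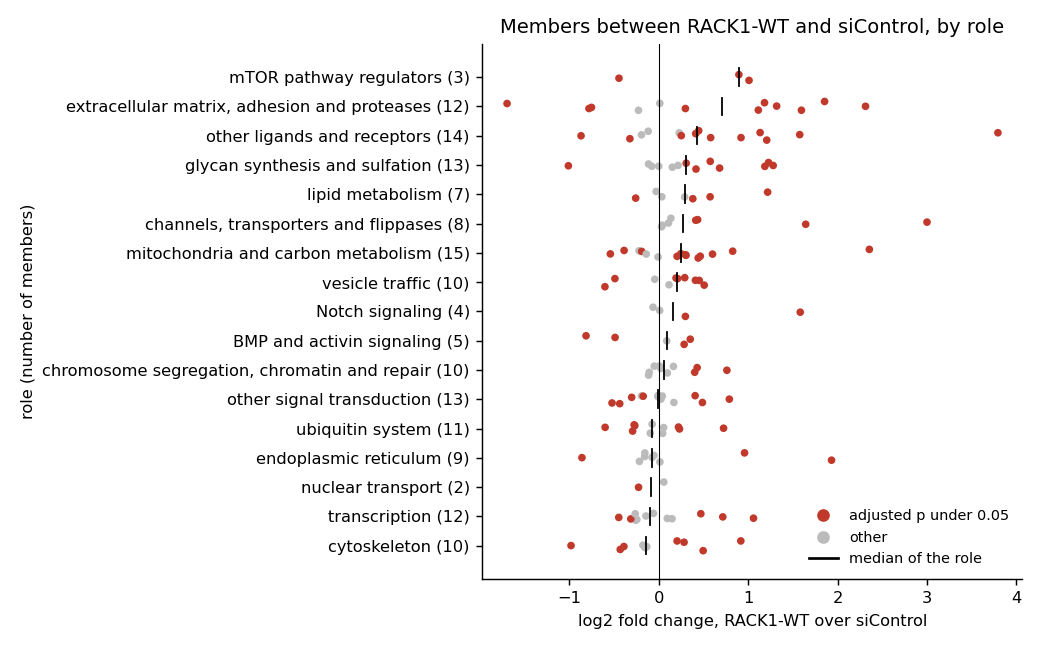
Log2 fold change of RACK1-WT over siControl (horizontal axis) for the 158 members with a role, by role (vertical axis, number of members in parentheses); each point is a gene, red at an adjusted p under 0.05 by edgeR's quasi-likelihood test, and black bars are medians of a role. Points run from -1.70 for CILP to 3.79 for NPR1, with both directions among the called members of most roles.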

How the data were processed

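The authors removed rRNA reads with Bowtie 1.1.2, aligned the rest with TopHat2 2.1.1 to GRCh37 with Gencode 24, keeping up to 64 hits, and used Plastid to count, for each gene and region, alignments 25 to 51 bases long. The deposited values are estimated counts, not whole and not normalized. The authors also deposited RPKM, scaled by region length and library, used here as an alternative. Names and sequences came from Gencode 44 lifted to GRCh37, in which 94.7% of 36595 transcript names matched; 5 members had no symbol and 5 joined several genes.

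Exon counts were divided by the library total for CPM. For tests they were rounded and fitted with edgeR 4.0.16 (R 4.3.3, TMM, filterByExpr, quasi-likelihood test, 4 groups, 14024 rows, 4 residual degrees of freedom), with Benjamini-Hochberg adjustment and a threshold of 0.05. Words were ranked with a pseudocount of 0.5 CPM, over words in at least 50 genes. Region ratios needed 20 counts. On simulated counts the fit recovered 86% of 1.4-fold changes between RACK1-Mut and RACK1-WT and 83% between RACK1-WT and siControl. Of its calls, 4.12% and 3.7% were false. The word scan was run on shuffled values with a planted word, whose shift was larger than the differences found here. Libraries held 30989049 to 42668783 counts. Members had 56 to 23446 counts in siTARG1, so the 2 libraries a group, more than counting, limit precision.

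Members and lists were chosen with earlier results of these data known. Genes were named by rule: the 15 lowest ratios, the 5 highest levels, the 4 longest and 4 shortest 3′ UTRs, those at the limits, those called between the RACK1 groups, the 4 highest and lowest called between RACK1-WT and siControl, and up to 4 a role. Others named, SDHB, STT3B, CLDN22, XRCC4, PTBP3 and those that differ between regions, were chosen after their values were seen. Alternatives were other limits, normalizations, tools, filters and left-out libraries. Sites of other members are not reported here.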

Additional observations from a re-analysis of the deposited data

How the results depend on the processing

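The number of members followed the limit of the rule: 111 rows at a ratio of 0.5 and 433 at 0.7, beside 233 at 0.6. It was 254 at a floor of 2 CPM, 205 at 10 CPM, 247 with TMM (231 shared with the members), 215 on coding counts (191 shared) and 205 on the authors' RPKM (167 shared). Leaving out a library gave 236 to 325 members, the most without siTARG1 replicate 2. The median ratio of siTARG1 to siControl was 0.404 on 3′ UTR counts without the minimum on region counts, and 0.402 with it. The median 3′ UTR length was 2649 bases when the longest annotated 3′ UTR of a gene was used (1998.5 over all genes), and the share with a word was 46.9% for the first word alone. Words were counted in the longest 3′ UTR among the transcripts of a row; in the longest one of the whole gene the shares were 58.3% for members and 23.99% for others. Between RACK1-Mut and RACK1-WT 3 members were called with only those 4 libraries, and 0 to 1 when a library was left out. Between RACK1-WT and siControl, leaving out a library gave 117 to 147 called members and DESeq2 gave 128. With the replicate number as a block, 0 and 135 members were called in these comparisons, as without it. The shares of all rows called under these alternatives were not counted. Replicates that share a number have no stated pairing, and their deviations correlated by -0.04 (RACK1-WT and siControl), 0.03 (RACK1-WT and RACK1-Mut) and 0.26 (siControl and siTARG1). No value reversed. For the 88 named genes, 453 values under an alternative moved by less than the replicate spread and 162 by more; the cause was not tested.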
